A study of Mus musculus with 59 samples.

Results

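The 33 genes described here encode enzymes, transporters and regulators of glycolysis and of some of the steps that gluconeogenesis does not share with it. They were chosen by name, with earlier results of these data known. The fructose bisphosphatase genes Fbp1 and Fbp2, which also serve gluconeogenesis, are not among the 33. All 33 were found in each of the 6 gene tables used, which list 51810 genes at 3 weeks post induction (w.p.i.) and 51812 genes in the untimed set. The genes fall into 9 roles: glucose transport (2 genes), hexokinases (3), hexose phosphate steps (4), PFK2 regulators (4), aldolase and triose steps (3), payoff steps (8), lactate (4), the pyruvate gate (2) and gluconeogenic steps (3).

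Glycolysis splits glucose into pyruvate and yields ATP without oxygen. Hexokinase, phosphofructokinase and pyruvate kinase carry its irreversible steps, and lactate dehydrogenase returns pyruvate to lactate, which monocarboxylate transporters carry out of the cell. Quiescent haematopoietic stem cells are known to rely on glycolysis, in part through hypoxia-inducible factor and the pyruvate dehydrogenase kinases, and neutrophils depend on it for most of their energy. Most steps have several isoenzymes encoded by separate genes, so a cell can keep a step and change the gene that serves it.

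RNA-seq was run on cells sorted from the bone marrow of C57BL/6 mice. KLS cells (c-Kit-positive, lineage-negative, Sca-1-positive) are a mixed population of stem and multipotent progenitor cells, and granulocyte-monocyte progenitors (GMPs) are more mature. The genes Daxx, whose protein places histone H3.3 in chromatin, and Pu.1, a myeloid transcription factor encoded by Spi1, were deleted with Cre, and the design asks which genes change without Daxx and what further loss of Pu.1 adds. The untimed set compared Daxx F/F Cre +/- (Daxx-KO, 2 libraries per cell type) with Daxx +/+ Cre +/- (WT, 2 libraries per cell type), and its labels give neither a Cre line nor a time. At 3 w.p.i., in the Mx1Cre line, Daxx F/F Cre +/- (Daxx-KO, 3 libraries per cell type) and DKO (2 libraries per cell type), in which Daxx F/F was joined with Pu.1 F/F on the same Cre +/- background, were compared with Daxx +/+ Cre +/- (WT, 3 libraries per cell type). A separate Pu.1 line, also Mx1Cre and at 3 w.p.i., compared Pu.1 F/F Cre +/- (Pu.1-KO, 2 libraries per cell type) with Pu.1 +/+ Cre +/- (WT, 2 libraries per cell type). All groups, the WT included, carried the Cre transgene. The methods describe induction of Mx1Cre with pI:pC, a double-stranded RNA analogue that evokes an interferon response, in adult mice of both sexes, and Mx1Cre acts in every interferon-responding cell, not in blood cells alone. The labels do not give the age of each mouse. At 3 w.p.i. and in the Pu.1 line the column headers carry 1 animal number per library, and KLS and GMP libraries share these numbers, so values of the cell types come from the same animals and are not independent of each other. For the untimed libraries the labels do not say that each came from its own animal, so p-values there measure the spread between libraries, which may be technical. The methods also describe RNA-seq of donor KLS cells and GMPs from irradiated, transplanted recipients, made with another library kit than at 3 w.p.i. Besides that set they describe RNA-seq of these cell types only at 3 and 24 w.p.i. Whether the untimed libraries are the transplant set is not given by their labels.

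Libraries held 3388906 to 22647397 gene reads, and the shallowest were untimed. The targeted gene Daxx fell in all libraries with floxed Daxx, with no overlap with WT, for example to 72.2 to 102 in KLS Daxx-KO, 78.1 to 93.9 in KLS DKO from 423 to 505 in KLS WT at 3 w.p.i. (normalized read counts). Spi1 was higher in the KLS libraries labelled DKO, at 2993 to 3330 against 1669 to 2320 in WT, and it overlapped WT in the KLS libraries labelled Pu.1-KO (1307 to 2920 against 2080 to 2764). In GMPs it overlapped WT in DKO (2989 to 3846 against 3348 to 4604) and lay below WT in Pu.1-KO (2589 to 2707 against 3395 to 3934). In untimed Daxx-KO libraries Spi1 lay above WT, at 1093 to 1155 against 400 to 439 in KLS cells. In untimed GMPs it read 1930 to 2114 in Daxx-KO against 1112 to 1117 in WT. At 3 w.p.i. it overlapped WT in Daxx-KO, at 1482 to 1679 in KLS cells and 3532 to 3958.5 in GMPs. A gene-level count cannot show a deletion of part of Spi1, so the directions given for DKO and Pu.1-KO rest on the labels. Cell type markers moved with several contrasts. In untimed KLS Daxx-KO libraries the summed level of 8 KLS markers was 1309 to 1370 CPM (gene reads scaled to a common total in each library) against 5739 to 5812 in WT, while 7 GMP markers summed to 1770 to 2320 against 113 to 213. Of the KLS markers 7 fell and 1 rose, and 6 of the 7 GMP markers rose. In the DKO-labelled KLS libraries, 9 neutrophil markers summed to 10120 to 11202 CPM against 41.8 to 2140 in WT and 76.5 to 465 in Daxx-KO. One WT library of that table, whose column number no label gives (the unnumbered library), stood apart from the others with 2140 CPM of neutrophil markers and 3326 CPM of GMP markers.

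In WT cells at 3 w.p.i. the highest level per kilobase belonged to Pkm, the pyruvate kinase of proliferating and most adult tissues. It stood at 81.3 ± 9.38 CPM per kilobase of exon (SD, n = 3) in KLS cells and 193 ± 33.7 (SD, n = 3) in GMPs. In KLS cells it was followed by Ldha (51.4 ± 4.85), Gpi1 (48.6 ± 12.9), Aldoa (45.7 ± 4.02) and Hk1 (43.2 ± 6.61). In each KLS WT library Ldha stood above Aldoa and Hk1, while the rank of Gpi1 varied. In GMPs the next were Gpi1 (126 ± 22.7), Hk3 (118 ± 13.1), Aldoa (106 ± 25.2) and Ldha (93.0 ± 16.2). In each GMP WT library Gpi1 and Hk3 stood above Aldoa, and Aldoa above Ldha. These orders were not tested. Hk3, the hexokinase of myeloid cells, ranged from 103 to 128 CPM per kilobase in GMP WT libraries and from 17.7 to 50.2 in KLS WT libraries, and its highest KLS value came from the unnumbered library. Pfkfb2, Eno2, Pklr and Aldoc, isoforms best known from heart, neurons, liver and brain, stood towards the bottom of the order in both cell types. The 33 genes together took 0.285% ± 0.0201 (SD, n = 3) of gene reads in KLS WT and 0.498% ± 0.0593 (SD, n = 3) in GMP WT libraries of that set. In untimed WT libraries Ldha led in KLS cells (60.2, before Pdk3 at 50.3 and Pkm at 42.2) and Hk3 in GMPs (92.3, before Ldha at 90.8 and Pkm at 87.5). Tables of the 2 cell types were normalized separately by the authors, so these levels are set side by side without a test.

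**Figure D1:**
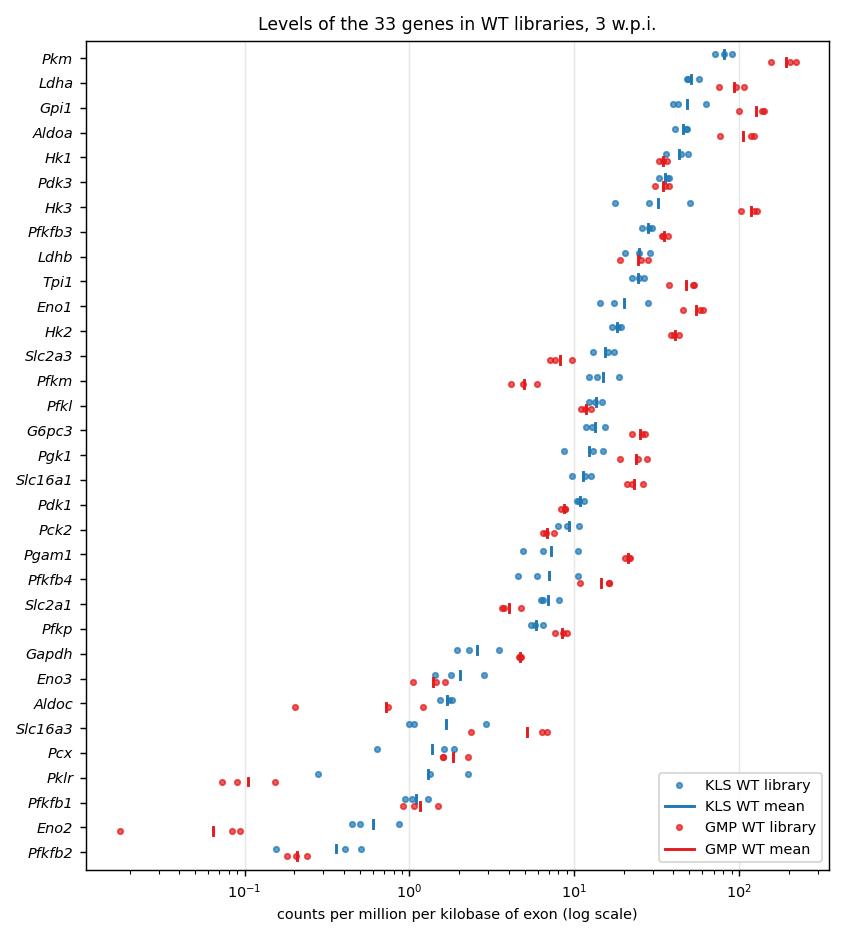
Level of each of the 33 genes in WT libraries at 3 w.p.i., in CPM per kilobase of exon on a log axis. Points are libraries (3 KLS in blue, 3 GMP in red) and bars are means. Pkm leads in both cell types at 81.3 in KLS cells and 193 in GMPs, and Hk3 spans 17.7 to 50.2 in KLS and 103 to 128 in GMP libraries.

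Gapdh stood at only 4.70 CPM per kilobase in GMP WT libraries, below its neighbours in the pathway. Of its exonic windows of 50 bases, 82.5% also occur elsewhere among annotated transcripts, against 72.2% for Eno1, 68.0% for Pgk1, 41.5% for Pgam1, 30.5% for Pkm, 27.0% for Ldhb, 19.6% for Gpi1, 16.6% for Ldha and 13.5% for Aldoa. How the counting treated reads that fit several places is not given in the sources used here, so levels of these genes are uncertain, Gapdh, Eno1 and Pgk1 most of all. Strand use is not given either, and several genes named below overlap another annotated gene. They include Hk3 (Unc5a), Hk2 (Gm17034), Hk1 (Hk1os), Gpi1 (Gm26762), Pfkp (Pitrm1), Tpi1 (Spsb2) and Aldoa (Fam57b). Others are Slc2a3 (Gm4482), Pkm (Gm49759), Pck2 (Gm10876) and Pfkfb3 (Gm10851 and Gm37975).

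Promoters of 4 genes that lead the results are shown because Pu.1 binds DNA directly and many glycolytic genes are targets of hypoxia-inducible factor. Each is the 250 bases before the start site from RefSeq on GRCm38.p6, 5′ to 3′ on the strand of the gene, and capitals mark the core of the hypoxia response element (ACGTG or GCGTG) or a PU.1 core (GAGGAA), searched on both strands. Ldhb (chr6:142507958-142508207, minus strand) encodes the lactate dehydrogenase subunit that favours pyruvate formation, Hk3 is at chr13:55021386-55021635 (minus strand), Slc16a3, the lactate exporter MCT4, is at chr11:120948817-120949066 (plus strand) and Gpi1, glucose-6-phosphate isomerase, is at chr7:34230337-34230586 (minus strand).
Ldhb: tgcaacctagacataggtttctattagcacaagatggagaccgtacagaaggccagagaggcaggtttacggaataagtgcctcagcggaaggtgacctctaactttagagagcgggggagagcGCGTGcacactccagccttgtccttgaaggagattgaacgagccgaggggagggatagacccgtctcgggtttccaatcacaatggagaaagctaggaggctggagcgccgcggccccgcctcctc
Hk3: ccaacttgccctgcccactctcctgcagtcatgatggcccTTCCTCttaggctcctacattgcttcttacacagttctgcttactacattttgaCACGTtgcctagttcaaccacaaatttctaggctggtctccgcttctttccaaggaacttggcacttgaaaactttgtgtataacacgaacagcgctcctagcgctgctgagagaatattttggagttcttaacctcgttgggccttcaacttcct
Slc16a3: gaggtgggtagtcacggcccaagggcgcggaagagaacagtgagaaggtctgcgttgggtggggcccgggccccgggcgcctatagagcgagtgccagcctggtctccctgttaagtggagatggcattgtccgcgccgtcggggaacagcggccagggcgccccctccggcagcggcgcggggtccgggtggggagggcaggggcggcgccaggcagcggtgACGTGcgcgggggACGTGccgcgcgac
Gpi1: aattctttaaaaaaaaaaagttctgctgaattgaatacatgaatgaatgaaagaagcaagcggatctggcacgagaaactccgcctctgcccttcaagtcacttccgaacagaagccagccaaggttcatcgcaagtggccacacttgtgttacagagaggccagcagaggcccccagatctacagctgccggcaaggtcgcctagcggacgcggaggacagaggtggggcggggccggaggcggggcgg

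Hk3 held a PU.1 core with its first base at -210 from the start site and a hypoxia response core at -156, Ldhb held a hypoxia response core at -126, Slc16a3 held a pair close to its start site, and Gpi1 held neither. Of the 33 genes, 32 were matched to RefSeq promoters, with 52 start sites between them. A hypoxia response core was present at 38 of these 52 starts (73.1%), against 38.6% of 32851 promoters in all, and 28 of 32 genes (87.5%) held one at some start, against 59.3% of 10983 genes measured in KLS cells. The PU.1 core was present at 12 of 52 starts (23.1%), against 23.3% of all promoters, and 9 of 32 genes held one. These matches describe letters and not bound sites.

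In untimed KLS cells the myeloid hexokinase Hk3 was 10.5-fold higher in Daxx-KO than in WT, and Aldoa was 3.07-fold higher. Of 31 genes tested, 9 changed (29.0%, against 23.1% of all genes tested), 8 higher and 1 lower, where 10.6% of all genes were called higher and 12.5% lower. Their median log2 fold change was 0.25, beside 0.03 for all genes. Hk3 read 428 and 329 normalized counts in WT and 4010 and 3864 in Daxx-KO (log2 fold change 3.39 ± 0.14 SE, limma adjusted p = 4.54e-06). Every Daxx-KO library stood far above every WT library, and the gene remained called under each of 11 alternatives.

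Aldoa, the aldolase of muscle and blood cells, read 420 and 525 in WT and 1288 and 1616 in untimed KLS Daxx-KO (log2 1.62 ± 0.15, limma adjusted p = 0.000151). Ldhb read 115 and 82.7 in WT and 282 and 419 in Daxx-KO (log2 1.81 ± 0.25, limma adjusted p = 0.00116). Pkm read 1440 and 1395 in WT and 2430 and 2699 in Daxx-KO (log2 0.85 ± 0.10). All 3 genes were higher in both Daxx-KO libraries than in either WT library. Gpi1, which turns glucose 6-phosphate into fructose 6-phosphate, read 896 and 899 in WT and 1412 and 1696 in Daxx-KO (log2 0.79 ± 0.12), and Pfkfb3, which makes the activator of phosphofructokinase, read 946 and 1021 against 1644 and 1423 (0.64 ± 0.11). G6pc3, the glucose 6-phosphatase that neutrophils need, rose by 0.60, and Pdk3, an inhibitor of pyruvate dehydrogenase, by 0.40. Hk2, the inducible hexokinase, was the 1 gene that fell, by 0.60 (583 and 465 in WT, 331 and 357 in Daxx-KO). Thus 1 hexokinase rose and another fell, while Hk1, at 1163 and 1120 in WT and 1168 and 1327 in Daxx-KO, did not pass the test.

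The groups of the 9 called genes did not overlap in any case. With 2 libraries per group this follows largely from the calls and adds no support, and the share over all genes was not computed. Without Daxx-KO library 1, 4 genes were called, and without Daxx-KO library 2, which is the deepest, 1 was called. GMP and monocyte markers moved in the same libraries: 8 monocyte and macrophage markers summed to 1659 to 2002 CPM in Daxx-KO and 29.2 to 55.2 in WT, with C1qa at 0 in both groups. The 9 neutrophil markers, of which 1 was called, summed to 917 CPM in WT library 1 and 5.58 in WT library 2. In Daxx-KO they summed to 135 and 232, so the WT libraries were unlike each other and lay on both sides. The part of these markers in the result was not tested. In bulk samples, more RNA per cell and more cells of a type cannot be told apart.

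In untimed GMPs Ldhb led, 6.87-fold higher in Daxx-KO, and Hk3 was 2.07-fold higher while Hk2 fell 2.40-fold. Of 30 genes tested, 15 changed (against 33% of all genes), 10 higher and 5 lower, where 16.6% of all genes were called higher and 16.5% lower. The median of the 30 was 0.04, beside -0.01 for all genes. Ldhb read 91.1 and 113 in WT and 614 and 804 in Daxx-KO (log2 2.78 ± 0.18, limma adjusted p = 1.46e-05). It was the largest change among the 30 genes tested in untimed GMPs, and it was called under each of 12 alternatives.

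Ldha, the partner that favours lactate formation, went the other way in untimed GMPs, at 1777 and 2072 in WT and 1300 and 1114 in Daxx-KO (log2 -0.67 ± 0.11, limma adjusted p = 0.00191). Hk2 read 1121 and 1190 in WT and 543 and 426 in Daxx-KO (log2 -1.26 ± 0.13), and Hk3 read 2314 and 2042 in WT and 4483 and 4521 in Daxx-KO (log2 1.05 ± 0.09). Pgam1, a phosphoglycerate mutase, fell from 367 and 339 to 195 and 175, and its near-copy Pgam1-ps2 fell too. So within the hexokinases and within the lactate dehydrogenases, genes of the same step moved in opposite directions. Slc16a3 read 103 and 127 in WT and 207 and 210 in Daxx-KO (log2 0.86 ± 0.19).

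The other genes that rose in untimed GMPs moved less. They were Gpi1 (0.57), Slc2a3, the neuronal and leukocyte glucose transporter GLUT3 (0.50), Pkm (0.48), Pfkfb3 (0.46), Pdk3 (0.45), Hk1 (0.43) and Eno1 (0.42). Both gluconeogenic genes that passed the test fell, Pck2, the mitochondrial PEP carboxykinase, by 0.47 and G6pc3 by 0.42, and the third, Pcx, read 71.5 and 68.7 in WT and 26.4 and 66.1 in Daxx-KO. Without WT library 1, 7 genes were called, and without WT library 2, 9 were. Neutrophil markers summed to 736 to 1024 CPM in WT and 5104 to 7155 in Daxx-KO (4 of 9 rose and 3 fell), and 10 proliferation genes summed to 1934 to 2174 in WT and 915 to 1107 in Daxx-KO, with 9 of 10 lower. Monocyte and macrophage markers summed to 1955 to 2154 in WT and 993 to 1057 in Daxx-KO (4 of 6 tested lower, 2 higher), and 5 of 7 tested KLS markers were lower and 1 was higher. Their part in the result was not tested.

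**Figure D2:**
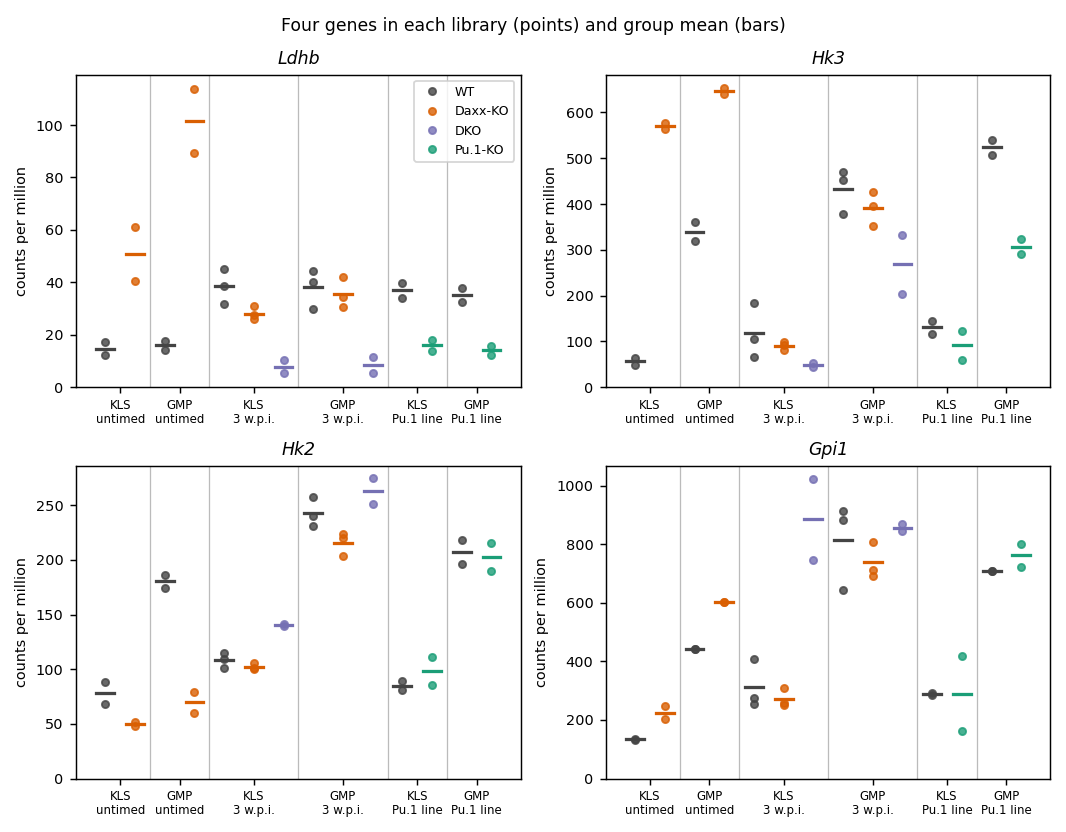
CPM of Ldhb, Hk3, Hk2 and Gpi1 in each of the 32 libraries (points) with group means (bars), by cell type and set, where vertical lines part the separately normalized tables. Ldhb is higher in untimed Daxx-KO than in untimed WT libraries and lower in the libraries labelled DKO or Pu.1-KO than in their WT, and Gpi1 stands at 748 to 1023 CPM in the KLS libraries labelled DKO against 256 to 409 in their WT.

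At 3 w.p.i. no gene of the 33 was called in Daxx-KO. None of 33 genes was called in KLS Daxx-KO against WT by limma, edgeR or DESeq2, where limma called 0.257% of all genes. An unadjusted p under 0.05 was found for 2 of 33, where 11.7% of all genes had one. Their median was 0.0017, beside -0.00052 for all genes. Pgk1, a phosphoglycerate kinase that makes ATP, had the lowest adjusted p, at 387, 255 and 446 in WT and 499, 493 and 546 in Daxx-KO (log2 0.53 ± 0.21, limma adjusted p = 0.387). Pfkfb4 had a log2 difference of -0.65 ± 0.29 (limma adjusted p = 0.427) and Pdk1 one of 0.34 ± 0.16 (limma adjusted p = 0.428). Ldhb read 600, 418 and 515 in WT and 353, 358 and 393 in Daxx-KO, below every WT library but not past the test, and Hk3 read 866, 1373 and 2453 in WT and 1178, 1112 and 1265 in Daxx-KO. The difference between the sets was not tested because the tables were normalized separately and the sets may differ in more than time.

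GMPs at 3 w.p.i. likewise held no called gene among 31 tested in Daxx-KO against WT by limma, edgeR or DESeq2 (0.0948% of all genes called by limma). An unadjusted p under 0.05 was found for 0 of 31, where 3.16% of all genes had one. The lowest p-values were those of Hk2 (log2 -0.23), Pgam1 (-0.20) and G6pc3 (-0.29), each with a limma adjusted p that rounds to 1. Ldhb read 532, 361 and 585 in WT and 431, 394 and 491 in Daxx-KO, so the groups overlapped. Hk3 read 5998, 4576 and 6236 in WT and 4441, 5476 and 4610 in Daxx-KO, which also overlapped.

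The libraries labelled DKO differed more. In KLS cells, 12 of 33 genes changed against WT (36.4%, against 17.6% of all genes), 8 higher and 4 lower, where 9.24% of all genes were called higher and 8.4% lower. Against Daxx-KO, 13 of 33 changed (39.4%, against 15.4% of all genes), 8 higher and 5 lower, where 8.17% and 7.22% of all genes were called. The medians were 0.10 and 0.11, beside -0.00031 and -0.01 for all genes. The comparisons share the libraries labelled DKO, so their values are given side by side and are not independent of each other.

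Genes of the upper pathway that rose in KLS DKO libraries were led by Gpi1. It read 3392, 3631 and 5433 in WT, 3306, 4276 and 3187 in Daxx-KO, and 15503 and 10205 in the libraries labelled DKO (log2 1.63 ± 0.25 against WT, limma adjusted p = 0.00262, and 1.82 ± 0.25 against Daxx-KO, limma adjusted p = 0.0013). Pfkfb4, a PFK2 isoform induced by hypoxia, read 295, 381 and 681 in WT, 320, 250.3 and 248 in Daxx-KO and 1456 and 1049 in DKO (log2 1.54 ± 0.32 and 2.19 ± 0.32). Both genes were highest in both DKO libraries, and the unnumbered library was the highest of the WT for both. Pfkp, the platelet phosphofructokinase, rose by 0.60 and 0.80, and Hk2 by 0.49 and 0.59.

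Pfkl, the liver isoform of the same enzyme as Pfkp, fell. It read 1084, 1296 and 1191 in WT, 1260, 1388 and 1223 in Daxx-KO and 685 and 743 in the libraries labelled DKO (log2 -0.73 ± 0.14, limma adjusted p = 0.00854, and -0.85 ± 0.14, limma adjusted p = 0.00376). Pfkfb3 was called only against Daxx-KO, at 0.87 ± 0.20, beside 0.60 ± 0.20 against WT (limma adjusted p = 0.0672), and this difference between the comparisons was not tested. Aldoc was called against Daxx-KO alone as well, at 76.9, 117 and 123 in Daxx-KO and 26.8 and 53.0 in DKO.

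In the lower pathway Tpi1, which interconverts the triose phosphates, rose by 0.78 ± 0.18 and 0.63 ± 0.18 in the libraries labelled DKO, and Eno1 by 1.32 ± 0.33 and 1.23 ± 0.33. Pgk1 rose against WT by 0.85 ± 0.24, to 698 and 580 from the WT values given above. Eno1 read 1249, 1020 and 1989 in WT, 1245, 2014 and 1238 in Daxx-KO and 4551 and 2557 in DKO, and its near-copy Eno1b rose by 1.52 against WT. How reads shared between these genes were counted is not given in the sources used here. Gapdh, at 107, 125 and 192 in WT and 146 and 128 in DKO, did not pass the test.

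At the lactate end, Slc16a3 rose and Ldhb fell in the libraries labelled DKO. Slc16a3 read 70.2, 74.1 and 206 in WT, 109.7, 93.3 and 86.8 in Daxx-KO and 513 and 341 in DKO (log2 2.02 ± 0.45, limma adjusted p = 0.0152, and 2.11 ± 0.45, limma adjusted p = 0.0126). Ldhb read 79.5 and 144 in DKO, a 4.69-fold fall against WT and a 3.42-fold fall against Daxx-KO (log2 -2.23 ± 0.27, limma adjusted p = 0.000974, and -1.77 ± 0.27, limma adjusted p = 0.00233). Both DKO values of Ldhb lay below all 6 other libraries. Ldha, at 2501, 2125 and 2131 in WT and 2998 and 2989 in DKO, did not pass the test.

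The pyruvate dehydrogenase kinases, which hold pyruvate back from the mitochondria, both fell in KLS libraries labelled DKO. Pdk1 read 1068, 1177 and 1097 in WT, 1381, 1334 and 1533 in Daxx-KO and 586 and 847 in DKO (log2 -0.66 ± 0.17 against WT), and Pdk3 fell by 0.49 and 0.50. None of the 3 gluconeogenic genes examined (Pcx, Pck2 and G6pc3) passed the test in either comparison. Fbp1 and Fbp2 are not among the genes described here.

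**Figure D3:**
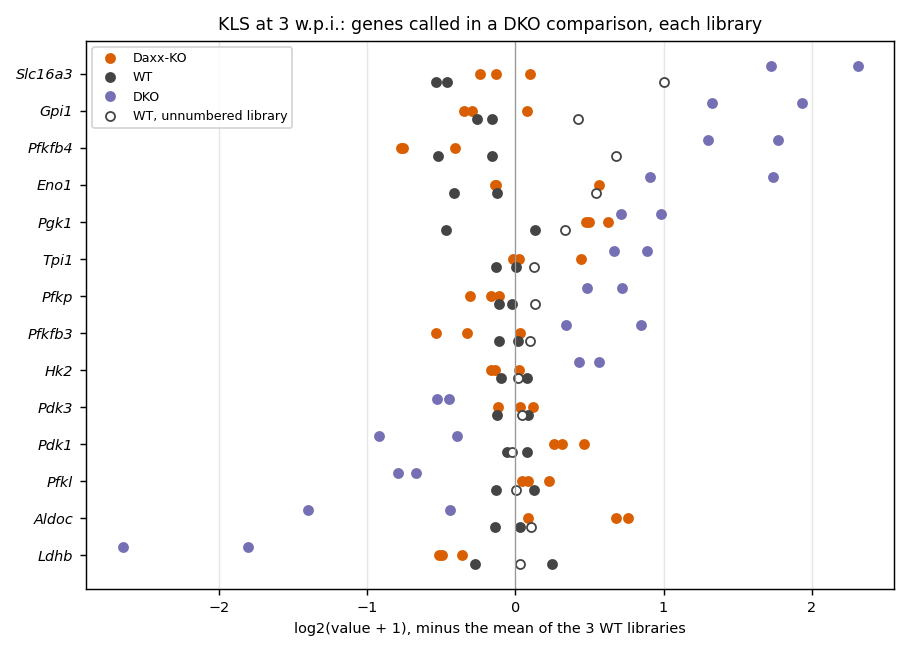
Values of the 14 genes called in either DKO comparison in KLS cells at 3 w.p.i., per library, as log2(value + 1) minus the mean of the 3 WT libraries. Points are libraries, and the open point is the unnumbered WT library. The 2 DKO points of each gene lie on the same side of all WT points, from Slc16a3 in the top row, where they lie highest, to Ldhb in the bottom row, where they lie lowest.

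The counts in KLS DKO libraries rest on few samples. Against WT the count was 10 without the unnumbered library, 5 without WT library 1, 4 without WT library 2 and 2 without DKO library 1. Against Daxx-KO it was 12 without the unnumbered WT library, 7 without Daxx-KO library 1, 8 without Daxx-KO library 3 and 4 without DKO library 1. Ldhb and Gpi1 stayed called against WT under each of 13 alternatives. KLS markers summed to 1773 to 2572 CPM in DKO, 4833 to 6882 in WT and 2757 to 5519 in Daxx-KO, GMP markers to 6980 to 8052, 361 to 3326 and 292 to 946, and 3 of 9 neutrophil markers and 5 of 10 proliferation genes rose against WT, none of either list falling. Their part in the result was not tested.

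In GMPs the libraries labelled DKO differed in 1 gene. Ldhb read 68.99 and 149 in DKO against 532, 361 and 585 in WT, a 4.72-fold fall (log2 -2.24 ± 0.34, limma adjusted p = 0.0368), and it was 1 of 31 genes tested (0.292% of all genes were called). Hk3 followed with a log2 difference of -0.75 ± 0.25 (limma adjusted p = 0.452) and Pcx with -0.85 ± 0.43 (limma adjusted p = 0.816). Against Daxx-KO, limma and edgeR called 0 of 31 genes (0.0583% of all genes called by limma) and DESeq2 called 1. An unadjusted p under 0.05 was found for 2 of 31, where 8.05% of all genes had one. There Ldhb had a log2 difference of -2.10 ± 0.34 (limma adjusted p = 0.0701), Slc2a3 one of 0.85 (limma adjusted p = 0.617) and Pdk1 one of -0.63 (limma adjusted p = 0.663).

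The call of Ldhb in GMPs was lost when any 1 of the 3 WT libraries or DKO library a was left out, and with only these groups in the fit. The GMP and KLS libraries labelled DKO come from the same animals. The libraries of this table varied widely in neutrophil markers within each genotype, from 4827 to 23261 CPM in WT, 3256 to 23652 in Daxx-KO and 9222 to 13611 in DKO, so these sums overlapped between groups. Gpi1 read 11725, 7788 and 12096 in GMP WT and 10931 and 10809 in GMP DKO libraries, which lay within the WT range.

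On the deposited scale, KLS libraries of the Pu.1 line had lower values for most of the 33 genes where labelled Pu.1-KO, without passing the test. Column totals on that scale were also lower, at 1.53e+07 and 1.11e+07 in Pu.1-KO against 2.01e+07 and 1.61e+07 in WT. As a share of gene reads the 33 genes took 0.288% ± 0.0220 in WT and 0.216% ± 0.0667 in Pu.1-KO (SD, n = 2 each). The median log2 difference was -0.98, beside 0.12 for all 23459 genes tested. Of the 33 genes, 12 had an unadjusted p under 0.05, where 25.9% of all genes did. Limma called 0 of 33 (0.81% of all genes), edgeR 1 and DESeq2 3. The lowest adjusted p-values were those of Pck2, at 1734 and 1293 in WT and 633 and 216 in Pu.1-KO (log2 -2.01 ± 0.58, limma adjusted p = 0.0519), Ldhb, at 682 and 644 against 212 and 199 (-1.69 ± 0.58, limma adjusted p = 0.0766), and Tpi1, at 2090 and 1032 against 756 and 287 (-1.65 ± 0.58, limma adjusted p = 0.0806).

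These 2 Pu.1-KO libraries were unlike each other, and library b was the lower for most of the 33 genes, for example 6366 and 1806 for Gpi1 and 1751 and 602 for Ldha. Without Pu.1-KO library a, 18 genes were called, on the assumption that the lone library varies like the WT, and without library b none was. The scaling also moved the median of all genes, to 0.18 with TMM, 0.26 with edgeR and 0.55 with DESeq2, and the median of the 33 genes minus that of all genes was -1.10, -1.02 and -1.44, beside -1.10 with the scaling as deposited. Daxx, which the labels of this line do not list as floxed, read 295 to 478 against 625 to 920, and neutrophil markers summed to 5452 to 8201 CPM against 1493 to 2187. Their part in the result was not tested.

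In GMPs of the Pu.1 line 11 of 32 genes changed in the libraries labelled Pu.1-KO (34.4%, against 17.6% of all genes), 3 higher and 8 lower, where 9.15% of all genes were called higher and 8.49% lower. The median was -0.47, beside -0.0023 for all genes. Column totals on the deposited scale were lower in Pu.1-KO, at 1.04e+07 and 1.29e+07 against 1.33e+07 and 1.40e+07 in WT. The median of all genes was 0.07 with TMM, 0.11 with edgeR and 0.25 with DESeq2. The median of the genes described here minus it was -0.47, -0.49 and -0.69, beside -0.47 as deposited. As a share of gene reads these genes took 0.476% in WT and 0.423% in Pu.1-KO (means, n = 2 each). The part of the scale in the falls was not tested. Slc2a3 led the rises, at 510.0 and 565 in WT and 1679 and 1525 in Pu.1-KO (log2 1.57 ± 0.24, limma adjusted p = 1.35e-08). Slc16a3 rose from 258 and 251 to 502 and 491, and Eno2, the neuronal enolase, was called higher at the low values of 40.04 and 31.7 against 11.6 and 1.31. Slc2a1, the other glucose transporter, did not pass the test, at 206 and 238 in WT and 185 and 229 in Pu.1-KO.

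Among the falls, Ldhb read 431 and 526 in GMP WT and 129 and 205 in Pu.1-KO (log2 -1.54 ± 0.29, limma adjusted p = 1.12e-05). Pdk1 read 861 and 1045 in WT and 241 and 470.0 in Pu.1-KO (log2 -1.49 ± 0.25, limma adjusted p = 5.98e-07), Pfkl read 1297 and 1457 against 549 and 823 (-1.03 ± 0.24), and Hk3 read 6745 and 7550 against 3011 and 4178 (-1.01 ± 0.25). Pu.1-KO values of these genes were below WT in every library. G6pc3 fell by 0.89, Slc16a1, the other lactate transporter, by 0.75, Ldha by 0.69 and Pfkfb3 by 0.65.

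Leaving out libraries moved this count widely, to 4 without WT library a, 0 without WT library b and 22 without Pu.1-KO library b. Neutrophil markers summed to 12888 to 16239 CPM in Pu.1-KO and 2109 to 2773 in WT, with 8 of 9 higher, and GMP markers to 10161 to 14548 against 19936 to 20688, with 4 of 7 lower. Their part in the result was not tested.

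**Figure D4:**
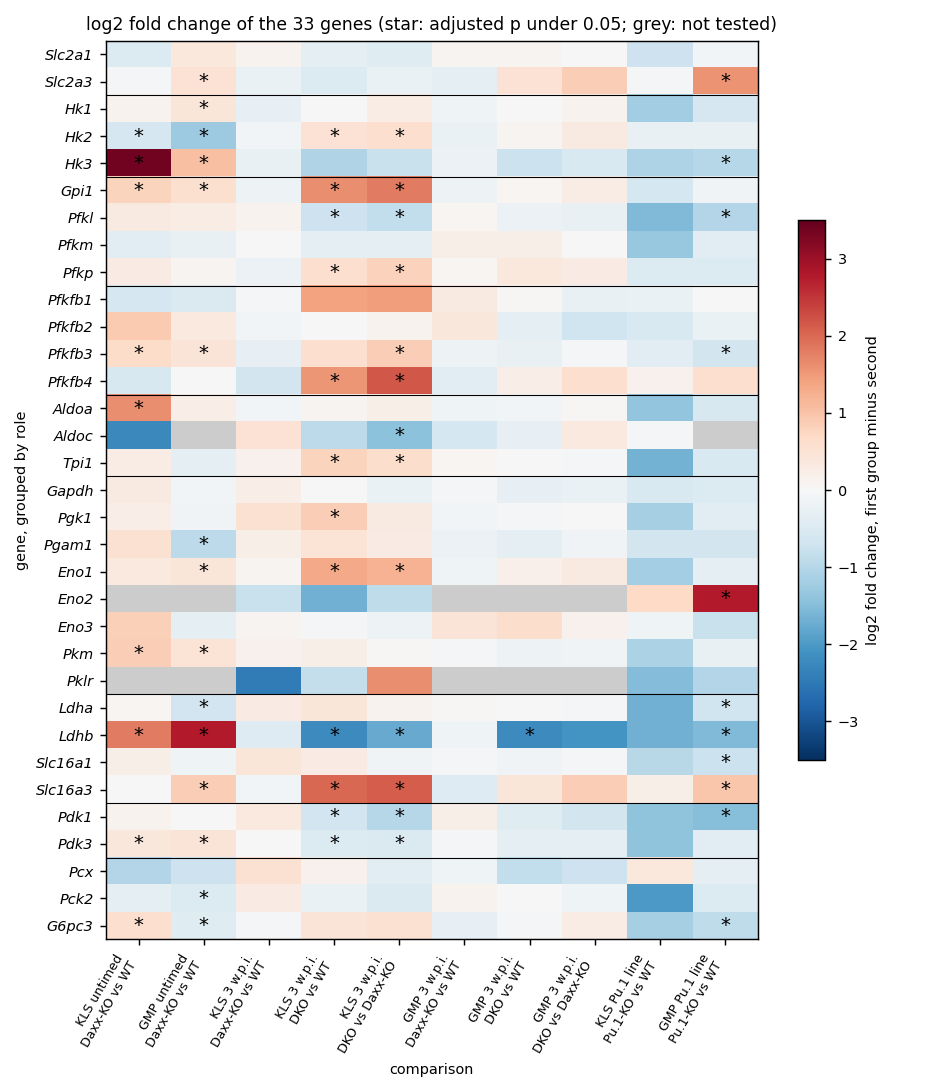
Log2 fold change of the 33 genes (rows, grouped by role) in the 10 comparisons (columns), from blue (lower in the first group) through white to red (higher). A star marks a limma adjusted p under 0.05 and grey marks genes below the filter. Ldhb is starred higher in both untimed comparisons and starred lower in KLS cells and GMPs labelled DKO against WT and in GMPs labelled Pu.1-KO.

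Because isoenzymes of a step moved in opposite directions, the share of each within its family was computed per kilobase of exon, as a description without a test. In KLS cells Hk3 made up 31.6% ± 2.31 (SD, n = 2) of hexokinase in untimed WT and 84.0% ± 1.42 (SD, n = 2) in untimed Daxx-KO, and in GMPs 65.5% ± 2.27 and 83.6% ± 0.522. At 3 w.p.i. it made up 33.3% ± 13.6 (SD, n = 3) in KLS WT, 31.7% ± 2.55 (SD, n = 3) in Daxx-KO and 17.2% ± 0.826 (SD, n = 2) in DKO. The untimed KLS Daxx-KO share lay above every untimed GMP WT share, and the KLS WT share at 3 w.p.i. varied most between libraries.

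Ldhb made up 13.4% ± 2.28 of lactate dehydrogenase in untimed KLS WT and 34.2% ± 5.14 in Daxx-KO (SD, n = 2 each), and 10.03% ± 0.395 and 55.1% ± 7.36 in untimed GMPs. At 3 w.p.i. it was 32.2% ± 2.53 in KLS WT, 22.3% ± 4.28 in Daxx-KO and 7.25% ± 2.76 in DKO, and in GMPs 20.7% ± 1.83, 18.6% ± 2.15 and 5.23% ± 0.652. The untimed WT shares thus lay below those of WT at 3 w.p.i., and the share in DKO was the lowest of the 3 genotypes in both cell types.

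Slc16a3 made up 12.1% ± 5.74 of the monocarboxylate transporters in KLS WT at 3 w.p.i. and 30.4% ± 4.69 in DKO, and in GMPs of the Pu.1 line 13.7% ± 0.839 in WT and 34.3% ± 2.11 in Pu.1-KO. Pfkp made up 17.4% ± 3.03 of phosphofructokinase in KLS WT and 31.3% ± 4.38 in DKO. Across 10 families and 14 groups, the leading isoenzyme was the same with coding length in place of exon length in 126 of 140 cases, and the same with no length in 126. The lead of Ldhb in untimed GMP Daxx-KO was among the exceptions, since Ldha led there with either alternative, and the leader among phosphofructokinases depended on the length used.

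**Figure D5:**
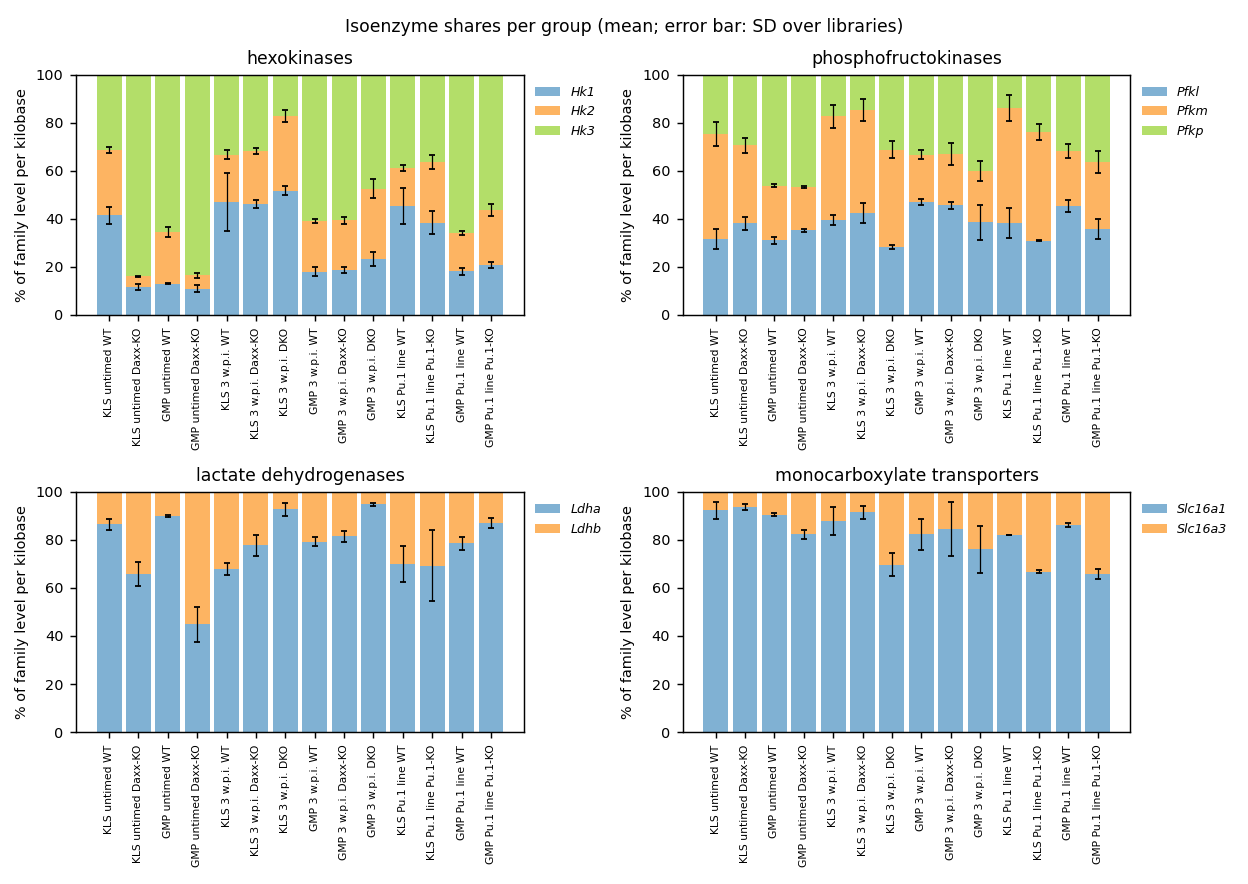
Share of each isoenzyme in its family, in % of the summed CPM per kilobase of exon, for hexokinases, phosphofructokinases, lactate dehydrogenases and monocarboxylate transporters in 14 groups. Bars are means and error bars are SD over 2 or 3 libraries. Hk3 takes 84.0% in untimed KLS Daxx-KO against 31.6% in WT, and Ldhb takes 7.25% in KLS DKO against 32.2% in WT.

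Neighbouring pathways were counted from lists chosen with earlier results of these data known. The pentose phosphate pathway, which branches off at glucose 6-phosphate and makes NADPH, had 5 of 6 tested genes higher and none lower in KLS libraries labelled DKO against WT, with a median of 1.20, where 9.24% of all genes tested were called higher. Pgd rose by 1.90, Taldo1 by 1.54 and Rpia by 1.22. In untimed Daxx-KO, 3 of 6 rose in KLS cells, Taldo1 by 0.95, Pgd by 0.89 and Tkt by 0.60, and 4 of 6 rose in GMPs, where 10.6% and 16.6% of all genes were called higher. None of 6 was called in Daxx-KO at 3 w.p.i. in either cell type, and 1, Rpia, fell in Pu.1-KO GMPs.

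Hypoxia-inducible factor targets outside the 33 genes moved both ways. In DKO-labelled KLS libraries, 3 of 15 rose and 2 fell against WT, with Ero1l at 2.09, Vegfa at 2.00 and Ndrg1 at -1.72, where 17.6% of all genes were called. In untimed Daxx-KO, 4 of 14 rose and 1 fell in KLS cells and 4 rose and 3 fell in GMPs, with Vegfa at 2.17 and 2.03, where 23.1% and 33% of all genes were called. Of the regulators, Myc, a transcription factor that drives many glycolytic genes, fell by 0.67 in KLS DKO and by 0.89 in Pu.1-KO GMPs and rose by 0.79 in untimed KLS Daxx-KO. Of 15 regulators tested, 0 rose and 2 fell in KLS DKO against WT, and 1 rose and 5 fell in Pu.1-KO GMPs. In each, 17.6% of all genes were called. In untimed Daxx-KO, 5 of 14 rose and 1 fell in KLS cells, and 4 of 14 rose and 0 fell in GMPs, where 23.1% and 33% of all genes were called. Of 30 other glycolysis genes, 25 were tested in the KLS table at 3 w.p.i., of which 2 rose and 2 fell in DKO against WT, among them Slc16a7, the transporter MCT2, which fell from a mean of 1383 to 153, so 4 of 25 changed where 17.6% of all genes were called.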

How the data were processed

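RNA-seq libraries were processed by the authors on mm10 with GENCODE M14. The label of the first sample names CASAVA 1.8.4, cutadapt 1.13, STAR 2.5.3 and DESeq2 1.16.1, and whether these hold for every library was not checked. The paper names CASAVA 1.8.4 for RNA-seq of transplanted recipients and not for RNA-seq at 3 w.p.i. The read counter is not given in the sources used here. The deposited values are normalized counts per gene, a signal in which reads were divided by size factors, and whole reads were recovered from them within 0.01. Columns were assigned to samples or groups by their names: GMP columns at 3 w.p.i. through animal numbers that KLS titles give, and the unnumbered KLS library and the Pu.1 line through control or treatment endings in the headers, so those groups rest on that reading. Of the columns, 79 of 111 per-sample columns were not used, and 27 of 59 samples were not analysed here. In each of the 6 tables, limma 3.58.1 with a mean-variance trend was run on log2(value + 1) over all groups, for genes with a mean of at least 10, with Benjamini-Hochberg adjustment over all genes tested and a call at an adjusted p under 0.05. Fold changes on this scale understate low genes. Alternatives were edgeR 4.0.16 and DESeq2 1.42.0 on recovered reads, TMM scaling, pseudocounts of 0.5 and 5, no filter, only the groups compared, a replicate block and leaving out each library. The fit was tested on simulated data. Levels used exon lengths from GENCODE M21. Called members were named by size of log2 fold change, with the value in each library for the first 6, or, where fewer than 3 were called, the 3 with the lowest adjusted p. The members and lists were chosen with earlier results of these data known.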

Additional observations from a re-analysis of the deposited data

Results flagged for a closer look

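The same contrast was compared between KLS cells and GMPs in 5 pairs of contrasts. In these, 4 of the 33 genes differed in opposite directions in the cell types, with no overlap between groups in either. With so few libraries per group such separation can arise by chance, and the share over all genes is not given here. The count of 4 therefore adds no support. The tables of the cell types were normalized separately, so the difference between them was not tested. In untimed Daxx-KO against WT, G6pc3 had a log2 fold change of 0.60 in KLS cells (means 322 and 213, limma adjusted p = 0.0448) and -0.42 in GMPs (means 359.9 and 484, limma adjusted p = 0.0351), and it is the 1 gene of the 4 called in both. Slc2a1, the ubiquitous glucose transporter GLUT1, had -0.46 in KLS cells (limma adjusted p = 0.105) and 0.38 in GMPs (limma adjusted p = 0.213). Eno3, the muscle enolase, had 0.82 (limma adjusted p = 0.343) and -0.32 (limma adjusted p = 0.661) at means of 12.0 to 22.7. In DKO against WT at 3 w.p.i., Slc2a3 had -0.47 in KLS cells (means 1071 and 1482, limma adjusted p = 0.113) and 0.52 in GMPs (means 1083 and 765, limma adjusted p = 0.98).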

How the results depend on the processing

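Of 919 alternative values for named genes, 752 kept their direction and their side of the threshold, 157 lost the call and 10 gained one, and none reversed. Leaving out 1 library moved the number of the 33 genes called to between 1 and 8 in untimed KLS cells, 7 and 15 in untimed GMPs, 2 and 10 for KLS DKO against WT, 4 and 12 against Daxx-KO, 0 and 1 for GMP DKO against either, 0 and 18 in KLS Pu.1-KO and 0 and 22 in GMP Pu.1-KO, and left 0 in both Daxx-KO comparisons at 3 w.p.i. With only the groups compared, GMP DKO against WT gave 0, and with DESeq2, GMP DKO against Daxx-KO gave 1. KLS Pu.1-KO gave 1 with no filter, 1 with TMM, 1 with edgeR and 3 with DESeq2, and the cause was not tested.

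Deviations of same-numbered libraries from their group means correlated at -0.0095, -0.1112, 0.0689, 0.0554, -0.1116, -0.2138 and -0.0767. In a group with 2 numbered libraries these deviations mirror each other, so such values cannot show whether libraries were paired. The main fit does not take the numbers as pairs. The replicate block gave 9 calls in untimed KLS cells, 13 in untimed GMPs (16 with the numbers crossed, a choice made after seeing the data), 0 for KLS Daxx-KO, 8 for KLS DKO against WT and 7 against Daxx-KO. In GMPs at 3 w.p.i., with the numbers that KLS titles give the same animals and without the WT library that has none (chosen after seeing the data), the replicate block gave 0 for Daxx-KO, 0 for DKO against WT, where 1 was called, and 0 against Daxx-KO, and same-numbered libraries correlated at -0.4433 to 0.0834. No paired analysis was possible in the Pu.1 line because its columns carry animal numbers and no replicate numbers.

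Over all genes, no filter gave 1751 calls against 3118 in untimed KLS cells. DESeq2 gave 335 against 39 for KLS Daxx-KO, and 67 against 13, 258 against 40 and 270 against 8 in GMPs at 3 w.p.i. KLS Pu.1-KO had 110 genes higher and 80 lower as deposited, 446 and 160 with TMM, 1493 and 194 with edgeR and 614 and 297 with DESeq2. Groups of 2 or 3 libraries limit every count.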
